A study of Mus musculus with 48 samples.

Results

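Among the stretches of captured DNA in the mouse intestine, 4834 autosomal regions were 5 kb or wider, of 95882 regions in all. They were chosen by width alone, as the regions on chromosomes 1 to 19 of the authors' peak list whose end minus start was at least 5000 bp. They were 5.11% of the 94535 autosomal regions and covered 36.4 Mb, 21.8% of the bases in autosomal regions. The median width was 6540 bp, 688 regions reached 10 kb, and the widest measured 50358 bp. A further 175 regions of that width lay off the autosomes, 34 of them on chromosome X and 93 on chromosome Y, and were not counted as members. The 3 narrowest members, at Riok1, near Itih5 and near Gm35580, measured 5000 or 5001 bp and held between 4.56 and 4.63 CPM per kb, which are normalised counts scaled to a common library size and divided by the width. The 3 widest regions left out, at Rnf10, Vps36 and Cdh13, measured 4999 bp and held between 4.78 and 5.19 CPM per kb.

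The study captured methylated genomic DNA with a methyl-CpG-binding domain and sequenced it (MBD-seq). It took 4 sections of the intestine (Duodenum, Jejunum, Ileum and Colon) from each of 12 mice, of which 7 were germ free (GermFree) and 5 were conventionalised (ConvR). A germ-free mouse lives without microbes, and ConvR is the label of the mice that the series' design text calls conventionalised; how and when they met microbes is not stated there. Each mouse gave 1 library per section, 48 in all, so the 8 groups of model and section held 7 or 5 mice. The labels used here name no strain, sex, age or source of the animals, and the labelled material is intestine, which holds many cell types. In such DNA a change in the mix of cells and a change within cells cannot be told apart. Nothing in the labels says that the mice were raised separately within a model, so p-values measure the spread between these mice.

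In mammalian genomes most CG dinucleotides carry a methyl group on the cytosine, while dense clusters of CG at many gene starts stay free of it. A methyl-CpG-binding domain holds fragments better the more methylated CG they carry, so captured stretches mark methylated, CG-containing DNA. A long captured stretch arises where such DNA runs on with few gaps, as it can in gene bodies and in arrays of duplicated genes. The amount of DNA captured also rises with the number of copies of a stretch in the genome, and capture alone cannot tell copies from methylation.

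Whole promoter windows lay inside few broad regions. The windows run from 250 bases before to 50 after each RefSeq gene start (GRCm38.p6, the coordinates of mm10), and 318 members (6.58%) held at least 1 whole window, against 1.53% of narrower autosomal regions. A wider region has more room for a window. The 403 windows inside broad regions, of 31396, had a median of 7 CG dinucleotides, the same as all windows. Their 90th percentile was 15 CG, against 32 for the windows inside no region. The ratio of observed to expected CG was 0.6 or more in 13.6% of windows inside broad regions, 9.15% of those inside narrower regions and 38.1% of the others. The 250 bases upstream of the start are shown for 4 genes, chosen because their regions differed between mouse models or sections and because they span the range of CG content. They are written 5′ to 3′ on the strand of the gene, with every CG in capitals.
Klra9, minus strand, chr6:130193113-130193362: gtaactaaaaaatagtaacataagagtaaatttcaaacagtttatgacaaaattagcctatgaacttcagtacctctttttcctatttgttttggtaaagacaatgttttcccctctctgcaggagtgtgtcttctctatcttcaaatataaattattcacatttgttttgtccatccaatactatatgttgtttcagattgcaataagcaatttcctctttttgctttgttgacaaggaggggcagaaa
Cr2, minus strand, chr1:195176720-195176969: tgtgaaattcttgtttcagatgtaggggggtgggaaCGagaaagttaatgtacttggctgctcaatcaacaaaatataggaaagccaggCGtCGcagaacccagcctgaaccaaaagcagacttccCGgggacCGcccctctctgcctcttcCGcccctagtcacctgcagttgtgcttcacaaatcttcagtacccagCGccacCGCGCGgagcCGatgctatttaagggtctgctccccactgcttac
Alad, minus strand, chr4:62519910-62520159: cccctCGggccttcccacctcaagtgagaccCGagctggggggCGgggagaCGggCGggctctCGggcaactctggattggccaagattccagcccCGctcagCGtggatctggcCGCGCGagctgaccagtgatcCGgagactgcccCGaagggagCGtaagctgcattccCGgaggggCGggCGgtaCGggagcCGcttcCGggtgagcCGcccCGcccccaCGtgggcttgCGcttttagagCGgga
Pramel25, plus strand, chr4:143789084-143789333: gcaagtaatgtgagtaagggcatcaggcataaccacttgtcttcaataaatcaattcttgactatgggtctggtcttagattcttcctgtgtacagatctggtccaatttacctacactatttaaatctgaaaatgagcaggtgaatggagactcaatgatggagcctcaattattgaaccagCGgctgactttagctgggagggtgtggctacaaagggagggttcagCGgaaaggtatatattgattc
Over the full window of 300 bases, Klra9, a natural killer cell receptor gene, held 2 CG, and Pramel25, of a germline-expressed family, also held 2. Cr2, the complement receptor of B cells, held 14, and Alad, an enzyme of haem synthesis, held 33. Of all windows, 5.25% held no CG.

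Broad regions lay mostly in genes. Of the 4834, 88.0% overlapped an annotated gene against 69.5% of narrower autosomal regions, and 81.1% against 59.8% overlapped a protein-coding gene. Width adds to such overlaps, and among regions of 2 to 5 kb the share with a protein-coding gene was 68.1%. Of the broad regions 64.7% lay wholly inside 1 protein-coding gene. A boundary of such a gene, at either its start or its finish, lay inside or within 1 kb of 23.6%, against 7.60% of narrower regions. A region of 5 kb or more held a whole gene in 311 cases, and 54 had no gene within 50 kb.

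Some genes held many of them. Broad regions overlapped 2954 protein-coding genes, 2242 of which had 1 and 66 had 5 or more. Wwox, a gene at a fragile site, overlapped 16 broad regions that together spanned 129 kb. Tiam1, an exchange factor for the GTPase Rac, overlapped 15, Slc39a11, a zinc transporter gene, overlapped 14, and 13 each overlapped Dst (a cytoskeletal linker), Ttn (the giant muscle protein titin) and Zfhx3 (a transcription factor). The median capture of these sets was alike, from 4.70 CPM per kb for Slc39a11 and Wwox to 5.00 for Tiam1.

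The far ends of chromosomes held more. On each chromosome the span from its first to its last region was cut into 10 equal segments. The last segment held 1222 members (25.3%) and 16.2% of all autosomal regions, so that 7.99% of its regions were broad. In the first 8 segments the share lay between 3.68% and 4.96%. By chromosome the share ran from 3.49% on chromosome 14 to 6.89% on chromosome 4, with 6.74% on chromosome 8 and 6.39% on chromosome 17. Mouse chromosomes are numbered from the centromere, so the last segment is the end farthest from it. These are descriptions of called regions, with no test, since position and width come from the same calls.

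**Figure D1:**
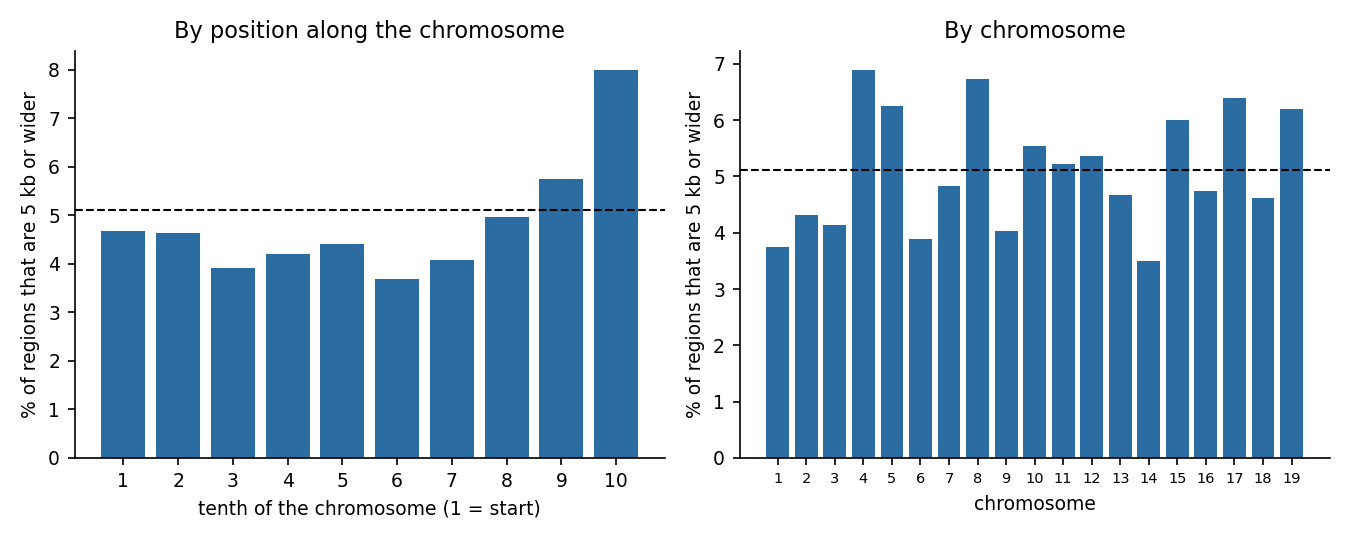
Share of autosomal regions that were 5 kb or wider, in percent, by 10 equal segments between the first and last region of each chromosome (left) and by chromosome (right). The share over all autosomes, 5.11%, is a dashed line. The last segment stands at 7.99%, and chromosomes 4 and 8 are the highest at 6.89% and 6.74%.

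Joined where gaps were at most 50 kb, the members formed 2899 runs, of which 1970 were single regions and 122 held 5 or more. The longest run (chr6:130561401-131015142) held 26 broad regions over predicted genes such as Gm6600 and Gm8816, beyond the Klra genes. A run of 21 lay at Rasgrp3 and Fam98a (chr17:75489342-75849650). A run of 18 lay over predicted genes and Speer4cos of the Speer family, which is expressed in the testis (chr5:15457770-15707142). Runs of 17 and 12 lay over zinc finger genes of chromosome 4, among them Zfp990 and Zfp980 in the first and Zfp982 and Zfp985 in the second. The Pramel genes of chromosome 4 held a run of 13. Runs within large genes also occurred, as the 15 regions of Tiam1 and the 12 of Dst.

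Capture per kb was even across most of the broad regions and very high in a few. Over the 48 libraries the mean capture of a broad region had a median of 4.77 CPM per kb, with quartiles of 4.60 and 5.00, and 95% of members stood below 7.39. The highest was 364 CPM per kb, near the predicted gene Gm9637 (chr14:19413300-19419705). It was followed by a region near Gm33780 (314 CPM per kb) and by 1 at Rn18s-rs5, a copy of the 18S ribosomal RNA gene (273 CPM per kb). Sfi1, a centrosome gene, had 112 and Tmem267 had 50.4. The 5 lowest lay between 3.74 and 3.85 CPM per kb, at or near Vmn2r-ps97, Gm9265, Gm6818, Gm32966 and Zfp992. Reads from near-identical copies cannot be placed with certainty, and the sources used here do not say how such reads were counted, so values in duplicated families and ribosomal repeats are uncertain.

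Width and capture per kb ran in opposite directions up to 5 kb. The median was 8.04 CPM per kb in the 41540 regions under 1 kb, 5.68 from 1 to 2 kb, 5.03 from 2 to 5 kb, 4.77 from 5 to 10 kb and 4.79 at 10 kb or more. The upper tail turned the other way, with a 95th percentile of 5.82 from 2 to 5 kb, 6.52 from 5 to 10 kb and 11.2 at 10 kb or more. Both measures come from the same reads, so no test was made. The 10 widest members included both kinds. Gm2544, with the broadest region of all (chr13:12870235-12920592, 50358 bp, near the Prl2c prolactin-family genes), had 9.98 CPM per kb, and Ush1c, a gene of the brush border and inner ear, had 8.32 over 41448 bp. Dctn3, a dynactin subunit gene, had 10.4 and Gm46898 had 12.8. In contrast Mical3, Vrk1 and Dst, with between 25902 and 29142 bp, had 4.75, 4.59 and 4.62. The remaining 3, near Mup17, Gm21940 and Fam98a, had 6.37, 5.55 and 6.51.

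**Figure D2:**
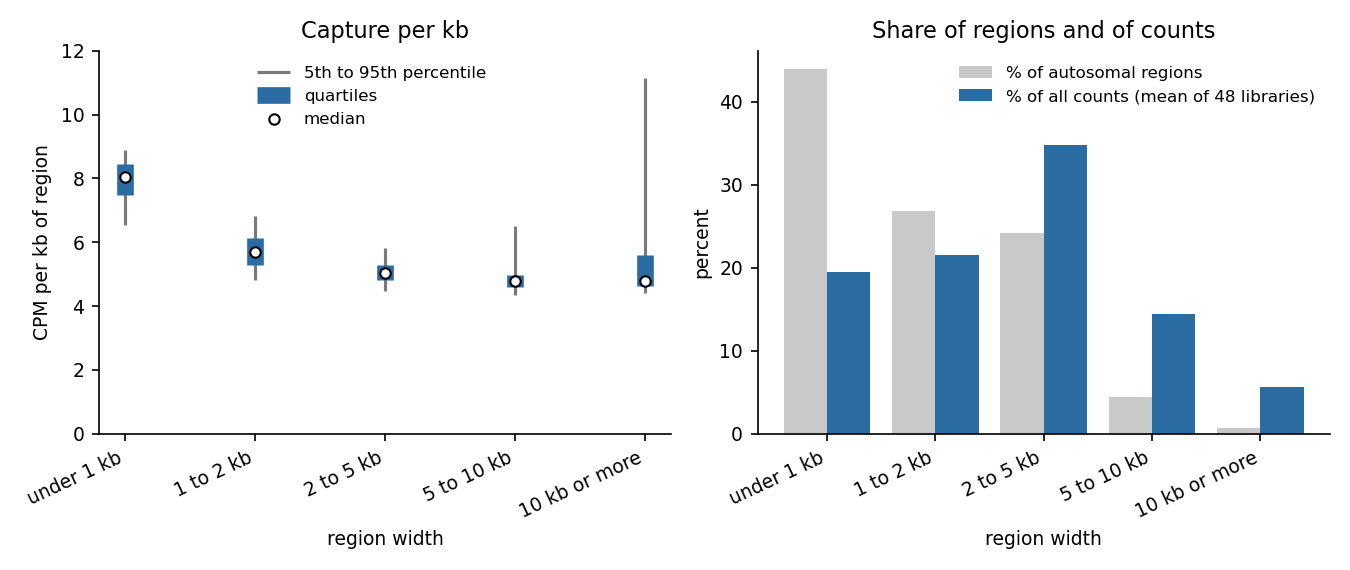
Left, capture in CPM per kb of region by width class of the autosomal regions, as median (circle), quartiles (thick bar) and 5th to 95th percentile (thin line). Right, the percent of autosomal regions and of all counts in each class. The median falls from 8.04 under 1 kb to 4.79 at 10 kb or more, where the upper tail reaches 11.2, and regions of 5 kb or more hold 5.11% of autosomal regions.

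The broad regions took a steady share of each library. Library totals ran from 1007560 to 3033782 counts, and the median broad region held between 33 and 99 counts. The share of counts in broad regions lay between 18.8% and 20.8%, with a mean of 20.05% ± 0.499 (SD over 48 libraries). It was 20.7% ± 0.0818 (SD, n = 7) in GermFree colon and 20.1% ± 0.429 (SD, n = 5) in ConvR colon, against 20.1% ± 0.468 and 19.6% ± 0.367 in the duodenum. The share in regions under 1 kb moved the other way, from 19.8% ± 0.828 (SD, n = 12) in the duodenum to 18.7% ± 0.715 in the colon. The normalising factors of the libraries lay between 0.966 and 1.03, lowest in the colon.

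Gene families differed in how many of their regions were broad, and the Klra and Speer arrays had the highest shares of the lists described here. Of the 18 autosomal regions over Klra (Ly49) genes, receptors by which mouse natural killer cells read MHC class I, 10 were broad, and of 16 over Speer genes 8 were. The broad share was 28.9% for microRNA genes (70 of 242), short genes that a wide region can cover along with their hosts, 26.7% for major urinary protein genes (4 of 15), 19.3% for vomeronasal receptors (16 of 83), 10.8% for immunoglobulin and T cell receptor loci (18 of 167) and 9.82% for zinc finger genes (89 of 906). Imprinted genes (14 of 238), other protocadherins and cadherins (19 of 348) and predicted Gm genes (679 of 10842) had shares of 5.88%, 5.46% and 6.26%, near the 5.11% of all autosomal regions. None of the 37 regions over serpins, the 19 over defensins, the 9 over histone genes or the 5 over the Hoxa to Hoxd clusters was broad. Median capture was 12.1 CPM per kb for Speer, 7.56 for Klra and 7.02 for vomeronasal regions, and 4.68 for imprinted genes.

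GermFree and ConvR mice were first compared on the counts of each mouse summed over its 4 sections. GermFree mice captured more DNA at 96 broad regions and less at 1. The largest group of higher regions was the run of 26 over predicted genes of chromosome 6, all of them called. Others lay at or near Klra receptors, NKG2D ligand genes, Cacna1b and Ehmt1, Rasgrp3 and Fam98a, Cr2, complement proteases and major urinary protein genes. Of the 4834 members, all of which passed the count filter, 97 (2.01%) were called with edgeR at an adjusted p under 0.05. Over all 95882 regions tested, 0.475% were called, 0.431% higher and 0.0438% lower. The share called rose with width, from 0.116% under 1 kb to 1.42% from 5 to 10 kb and 5.52% at 10 kb or more. The median standard error of a log2 difference fell over the same classes from 0.145 to 0.064, so wide regions were also measured more precisely. All region names carry the GermFree label. If only GermFree libraries went into peak calling, the choice of regions, and their width, already leans towards DNA captured in GermFree mice, and the direction of the calls is given as a description only. The median log2 difference over all members was 0.00066, and 2431 of 4834 lay above 0.

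The calls were clustered. Those 96 higher regions fell in 26 runs, and 47 of the 97 called lay on chromosome 6. At 73 of the 96 every GermFree mouse stood above every ConvR mouse. The 96 were called on these same sums, so such separation follows in part from the choice and adds no support. The same count over all regions is not given here. Of the 97 called, 37 overlapped a protein-coding gene and 41 overlapped no gene, and their median capture was 6.66 CPM per kb. The log2 differences of the higher regions ran from 0.30 to 1.95. Neighbouring regions share the same mice and often the same duplicated sequence, so their number is not a number of independent differences.

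The largest differences lay in the run at H60b on chromosome 10 (7 broad regions, 7 higher). H60b encodes a stress-induced ligand of NKG2D, the activating receptor of natural killer cells. Its region (chr10:22278837-22288912) held 3.85, 4.34, 2.65, 4.27 and 3.31 CPM per kb in ConvR mice 1 to 5, and from 8.34 to 18.2 with a median of 14.9 in the 7 GermFree mice. The groups did not overlap, and the GermFree mice spread more widely than the ConvR mice. The log2 difference was 1.95 (SE 0.13, adjusted p = 1.16e-13). The adjoining region at Gm26740 held 4.88, 4.44, 3.08, 4.51 and 3.30 in ConvR mice and from 8.40 to 16.9, median 13.6, in GermFree mice (log2 1.69, SE 0.13, adjusted p = 1.03e-12). The other members of that stretch differed less. A region 703 bp from Raet1d, another NKG2D ligand gene, had a log2 difference of 1.37 (SE 0.10), and C920009B18Rik and Gm5421 had 1.401 and 1.25 (SE 0.12 each). At E030030I06Rik, outside that run, it was 1.35 (SE 0.11).

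The Klra genes moved together. All 10 broad Klra regions were higher in GermFree mice, with a median log2 difference of 0.79 that stayed between 0.75 and 0.79 under the 3 other scalings of the libraries. The widest, at Klra9 (chr6:130187367-130211212), held 7.71, 8.02, 5.57, 8.22 and 6.39 CPM per kb in ConvR mice 1 to 5, and from 12.1 to 16.7 with a median of 16.0 in GermFree mice. The groups were apart, with ConvR mouse 3 the lowest (log2 1.07, SE 0.10, adjusted p = 1.44e-10). At Klra8 (chr6:130109734-130126450) ConvR mice held 4.36, 4.65, 3.07, 4.48 and 3.62, and GermFree mice from 6.99 to 9.50, median 9.23 (log2 1.08, SE 0.09). Klra4, an activating member of the family, had 1.11 and 1.003 at its 2 widest regions (SE 0.09 each). Klra3, an inhibitory member, had 0.63 (SE 0.10, adjusted p = 1.58e-05), and 6 of the 7 GermFree mice exceeded the highest ConvR mouse. Between Klra genes, regions near the predicted genes Gm22621 and Gm24676 had 1.17 (SE 0.08) and 1.11 (SE 0.09). The only broad region over another lectin receptor gene of the natural killer complex, Klrb1a, had 0.02 (adjusted p = 0.98). In the run of 26 that begins beyond the Klra genes all 26 were higher, with a median log2 difference of 0.69.

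Cacna1b, which encodes a neuronal calcium channel subunit, and the neighbouring histone methyltransferase gene Ehmt1 shared a run of 8 broad regions, all of them higher in GermFree mice. The widest (chr2:24673580-24698127) held 3.90, 8.28, 6.33, 7.94 and 3.56 CPM per kb in ConvR mice 1 to 5, and from 10.2 to 13.1 with a median of 12.03 in GermFree mice. ConvR mice 1 and 5 stood well below the other ConvR mice, and no GermFree mouse overlapped either set (log2 0.99, SE 0.13, adjusted p = 4.43e-07). The Ehmt1 region (chr2:24796869-24802813) showed the same order, with 4.31, 8.23, 6.63, 8.94 and 4.49 in ConvR mice and from 11.1 to 13.2 in GermFree mice (log2 0.90, SE 0.10). Of the other broad regions over calcium channel genes, none was called. Of 17 broad regions over histone lysine methyltransferase genes, the Ehmt1 region was the 1 called.

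Regions at Cr2, C1ra, C1s1, Ifi202b and Ifi203 were also higher. Of the genes described, Cr2, C1ra, C1s1, Ehmt1, Fam98a and Alad were singled out after their values were seen. The region over the Cr2 start (chr1:195163667-195178371) held 3.59, 3.93, 2.61, 4.25 and 3.29 CPM per kb in ConvR mice, and from 4.08 to 8.44, median 6.28, in GermFree mice (log2 0.76, SE 0.11, adjusted p = 3.19e-06). All 8 regions of its run were higher, among them 1 at the pseudogene Vmn2r-ps1 (log2 0.73, SE 0.10). At C1ra, a protease of the classical complement pathway, ConvR mice held 4.70, 4.57, 3.88, 4.69 and 4.58, and GermFree mice from 5.81 to 6.73 (log2 0.49, SE 0.07, adjusted p = 9.63e-07). Its partner C1s1 had 0.44 (SE 0.08), and 4 of the 6 broad regions of the run over C1ra, C1s1, C1rb and C1s2 were called. Both broad regions over interferon-inducible Ifi200 genes were higher, with 0.50 at Ifi202b and 0.43 at Ifi203 (SE 0.08 and 0.07).

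Differences were also found at other members. In the run of 21 at Rasgrp3 and Fam98a 8 regions were higher, with a median log2 difference of 0.34 over the run. Among its regions, 1 near Gm9360 had 0.41 (SE 0.09, adjusted p = 0.00734) and Rasgrp3 had 0.32 (SE 0.08, adjusted p = 0.0897). A region 9982 bp from Mup17, among the 10 widest (chr4:61550772-61581947), held 4.70, 5.22, 3.67, 5.19 and 4.65 in ConvR mice and from 6.34 to 8.33 in GermFree mice (log2 0.68, SE 0.09). Mup-ps4 had 0.53 (SE 0.08), and the other 3 of the 4 broad regions over major urinary protein genes were not called. Nlrp4e, an oocyte gene, had 0.42 at 1 of its 2 broad regions (SE 0.08, adjusted p = 0.00124). Fam98a had 0.35 (SE 0.09, adjusted p = 0.0382) and Alad had 0.30 (SE 0.07, adjusted p = 0.0418). Both calls were lost under most ways of leaving out 1 mouse, with an adjusted p of up to 0.309 for Fam98a (without ConvR mouse 5) and up to 0.189 for Alad (without ConvR mouse 5). With offsets fitted to abundance the Alad region had an adjusted p of 0.067, and with DESeq2 the Fam98a region had 0.171. The 1 broad region lower in GermFree mice held 2 transfer RNA genes, n-TVcac2 and n-TAagc7 (chr13:23407402-23412990). ConvR mice held 16.0, 14.3, 11.7, 15.0 and 13.3 CPM per kb there, and GermFree mice from 10.1 to 12.2, so the groups overlapped at ConvR mouse 3. The log2 difference was -0.30 (SE 0.07, adjusted p = 0.0283), and the call was lost without ConvR mouse 1, 2 or 4 and without GermFree mouse 2, 4 or 6, where the adjusted p lay between 0.0762 and 0.188.

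**Figure D3:**
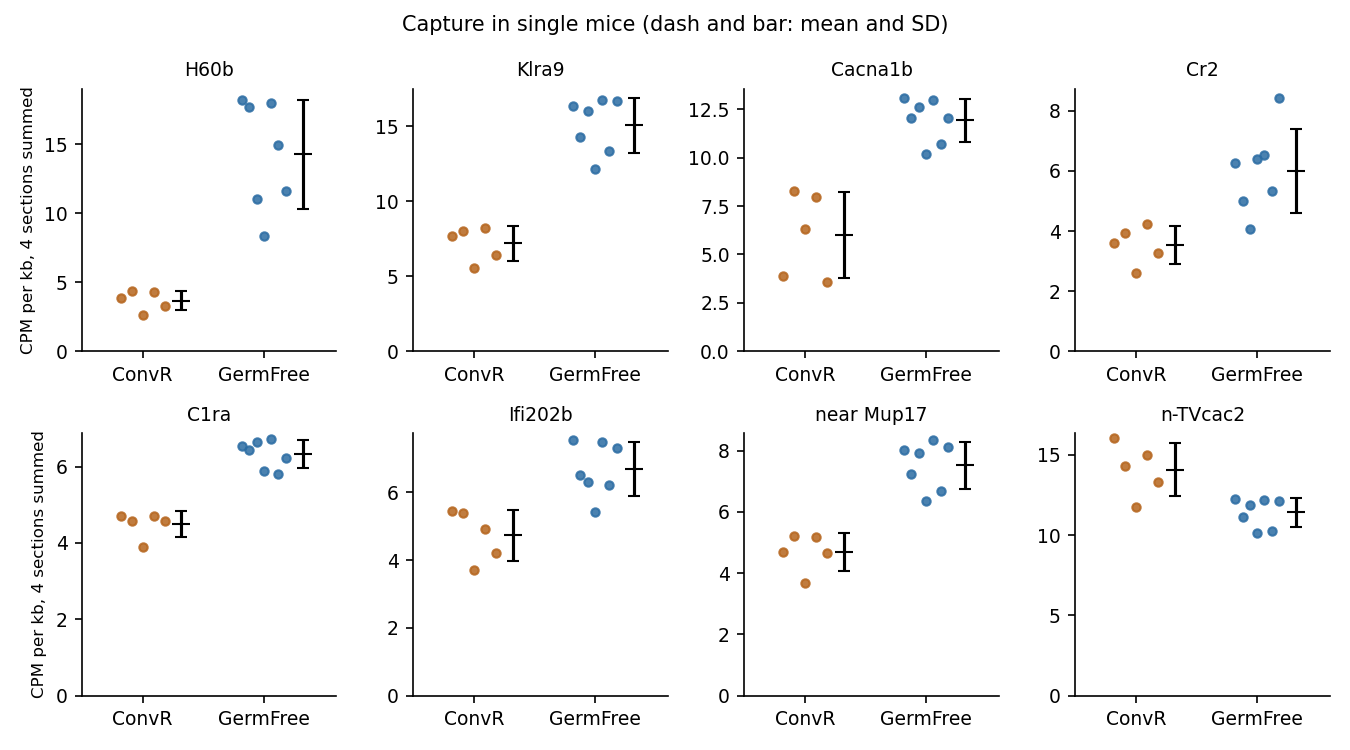
Capture in CPM per kb of the 4 sections summed, for each of the 5 ConvR and 7 GermFree mice, at the widest named region of 8 genes, with mean and SD. GermFree mice lie above all ConvR mice at H60b, Klra9, Cacna1b, C1ra and near Mup17, the groups touch at Cr2 and Ifi202b, and at n-TVcac2 GermFree mice are lower.

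Section by section, GermFree mice were higher at 96 broad regions in the duodenum, 54 in the jejunum, 72 in the ileum and 101 in the colon, and 51 regions were called higher in all 4. Called in either direction were 97, 60, 72 and 102 members, or 2.01%, 1.24%, 1.49% and 2.11%. Over all regions tested in those sections, 0.463%, 0.343%, 0.365% and 0.542% were called, of which 0.423%, 0.304%, 0.316% and 0.513% were higher and 0.0398%, 0.0391%, 0.0491% and 0.0283% lower. Each of the 96 regions higher in the sums had a log2 difference above 0 in all 4 sections. The sums are made of these sections, so this follows in part from the choice. How many of all regions were called higher in all 4 sections is not given here. The H60b region held 14.5 ± 3.90 (SD, n = 7) against 3.30 ± 0.712 CPM per kb (SD, n = 5) in the duodenum and 16.3 ± 3.58 against 4.11 ± 1.09 in the colon. Its log2 difference was 2.13, 1.77, 1.86 and 2.001 in the duodenum, jejunum, ileum and colon. At Klra9 it was 1.24, 0.82, 1.14 and 1.12, and at Cacna1b 1.06, 0.80, 0.97 and 1.10.

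Those values were lowest in the jejunum, and the difference between sections was tested directly. The test of whether the model difference varied by section called 0 members with edgeR and 0 with DESeq2, 256 members (5.30%) had an unadjusted p under 0.05, and the smallest adjusted p was 0.986. Over all 95876 regions tested 0% were called. Capture was lower in GermFree mice at 8 broad regions, each in 1 section. In the jejunum there were 6 such regions, with log2 -0.59 at n-TVcac2 (adjusted p = 4.2e-06), -0.50 at the zinc finger gene Zfp936 (adjusted p = 0.000361) and -0.42 near Gm7093 (adjusted p = 0.0416). The duodenum had 1 at Gins4, a replication gene (log2 -0.55, adjusted p = 0.0046), and the colon 1 at Zbtb39 (log2 -0.48, adjusted p = 0.0425). The Gm7093 and Zbtb39 calls were each lost on leaving out any of 7 mice, with adjusted p values of up to 0.419 and 0.83, both without ConvR mouse 3. With DESeq2 the adjusted p was 0.0522 at Gins4, 0.497 near Gm7093 and 0.57 at Zbtb39, and without ConvR mice 1 and 3 it was 0.0568 at Gins4.

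Between sections, the colon stood apart from the small intestine. Captured DNA was higher in the colon at 451 broad regions, many of them in duplicated arrays of Speer, Zfp, Pramel and predicted genes. It was lower at 60, most of them inside single protein-coding genes, as were 64.7% of all members. The differences were small, with log2 values from 0.20 to 0.48 for the higher and from -0.38 to -0.21 for the lower regions. Of 4834 members, 511 (10.6%) were called, against 2.39% of all 95876 regions tested, 1.79% higher and 0.607% lower. By width class the share called was 0.855% under 1 kb, 8.22% from 5 to 10 kb and 24.7% at 10 kb or more, while the median standard error fell from 0.169 to 0.062. The joint test of all 4 sections called 327 members (6.76%), against 1.16% of all regions. These counts, and the p-values of single regions between sections given below, came from a fit of 48 libraries without a term for the mouse. With the mouse as a block, which is the sampling of this design, 682 members were called for the colon (568 higher, 114 lower) and 578 in the joint test. Over all regions the colon calls rose as well, from 2295 without the block to 3615 with it (2571 higher, 1044 lower).

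The direction of these calls depended on the scaling. The split of 451 higher to 60 lower (88.3% higher) became 442 to 63 with DESeq2 size factors, 396 to 119 (76.9%) with library totals and 237 to 195 (54.9%) with offsets fitted to abundance. Of the calls over all regions 74.6% were higher in the main fit and 73.7% with DESeq2 size factors. That share was 57.9% with library totals and 62.9% with fitted offsets. The counts also depended on single mice. Colon calls were 208 without ConvR mouse 5, 314 without ConvR mouse 4 and 313 without GermFree mouse 4, and highest, at 704, without ConvR mouse 3. The joint test called 25 without ConvR mouse 5, 64 without GermFree mouse 4 and 78 without ConvR mouse 4. It called 122 and 158 without ConvR mouse 1 or 2, 217 without GermFree mouse 1 and also without GermFree mouse 2, and 179 without GermFree mouse 6. In GermFree libraries alone 566 members were called, and in ConvR libraries alone 0, with 506 members at an unadjusted p under 0.05. Over all regions these subsets of libraries gave 2645 and 0 calls. In the 5 ConvR mice alone the log2 differences were 0.40 at Gm38997, 0.44 near Gm8016 and -0.43 at Cul7. They were 0.18 at H2-Q1 and -0.22 at Wdr6, and the medians of the Klra and Speer regions were 0.23 and 0.26. In GermFree libraries alone Cul7 had -0.26 and the Klra regions a median of 0.38. Over all members the median was 0.0081 in ConvR libraries and 0.024 in GermFree libraries. Whether the colon difference varied between the models is part of the test that called 0 regions. With ConvR mice 1 and 3 left out 609 were called.

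Regions with high capture per kb held most of the higher calls. A level of 6 CPM per kb, set after the values were seen, split the members into 410 above and 4424 below. Of the 410, 305 were higher and 1 lower in the colon, 399 (97.3%) had a log2 difference above 0, and the median was 0.29. Of the 4424, 146 were higher and 59 lower, and the median was 0.0074. With offsets fitted to abundance the first set had 138 higher and 5 lower with a median of 0.16, and the second 99 higher and 190 lower with a median of -0.028. Of the 410, 39.8% overlapped a protein-coding gene, against 84.9% of the rest, and 65.1% against 14.0% lay in runs of 5 or more. The 3 regions of highest capture did not follow, with log2 differences of 0.07 near Gm9637, 0.05 near Gm33780 and -0.01 at Rn18s-rs5. In these comparisons the share of counts in regions under 1 kb, which was lower in the colon, moved with the result, and its part was not tested.

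**Figure D4:**
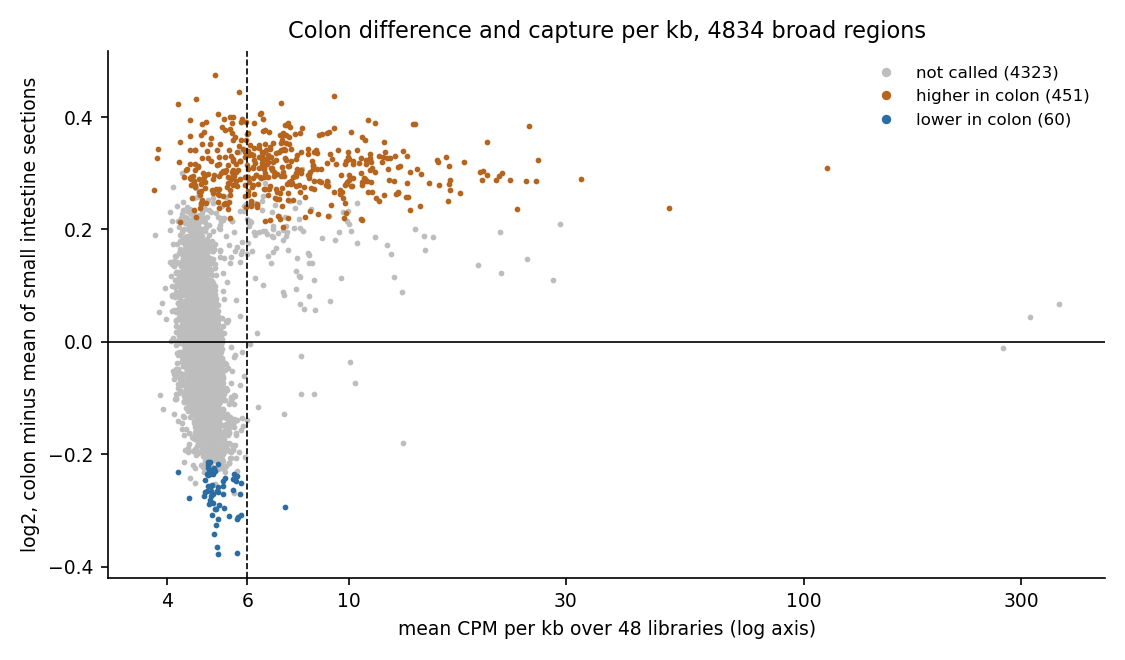
Log2 difference between colon and the mean of the 3 small intestine sections against mean CPM per kb on a log axis, 1 point for each of 4834 broad regions, with called regions in colour and a dashed line at 6 CPM per kb. Right of the line 305 regions are called higher in the colon and 1 lower, and left of it 146 and 59.

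Some families of duplicated genes held many regions higher in the colon, where 451 of all 4834 members and 1.79% of all regions were called higher. All 8 broad Speer regions were called higher, with a median log2 of 0.31, 9 of 10 Klra regions (0.31), 14 of 18 over immunoglobulin and T cell receptor loci (0.31) and 11 of 16 over vomeronasal receptors (0.29), beside a median of 0.02 for all members. Median capture of these families lay between 6.02 and 12.1 CPM per kb. Members at or above 6 CPM per kb had a median of 0.29, with 305 of 410 called higher, so these values are not particular to the families. Of 6 regions over olfactory receptors 2 were higher, at a median of 0.05 that was -0.0049 with offsets fitted to abundance. None of the 4 over keratins (median -0.01) or the 2 over clustered protocadherins (0.04) was called. With 10.6% of all members called in either direction, so few regions show little. With those offsets the calls for Speer, Klra, antigen receptor and vomeronasal regions numbered 3, 4, 11 and 3, and their medians were 0.15, 0.21, 0.25 and 0.20. Of 89 zinc finger regions 30 were higher and none lower (median 0.09), which became 27 to 5 with library totals and 10 to 6 with fitted offsets. Of 679 regions over Gm genes 146 were higher and 6 lower, which became 127 to 11 with library totals and 62 to 21 with fitted offsets. Imprinted genes had 0 of 14 called, at a median of 0.01 that was -0.02 with library totals.

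Single regions show the size of the difference beside its spread. Gm38997, a predicted gene on chromosome 7 with the largest rise (chr7:41008698-41014276), held from 2.32 to 7.75 CPM per kb in the duodenum (median 4.07), 3.41 to 6.75 in the jejunum (5.00), 3.58 to 5.29 in the ileum (4.80) and 3.79 to 8.38 in the colon (6.49). The sections overlapped, yet in 12 of 12 mice the colon stood above the mean of that mouse's small intestine sections (log2 0.48, SE 0.08, adjusted p = 0.00046). A region 43339 bp from Gm8016 had a log2 difference of 0.44 (SE 0.07), with the colon higher in 12 of 12 mice. Gm26740, Klra3, Gm20778, Gm10060, Gm38510 and a region near Olfr55 followed with 0.44, 0.43, 0.42, 0.41, 0.41 and 0.41, the colon being higher in 11 of 12 mice at each.

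Arrays of duplicated genes held several of the higher regions. The Speer4e region (chr5:14919947-14936889) held from 4.86 to 10.01 in the duodenum (median 7.83), 6.81 to 9.22 in the jejunum (8.04), 4.87 to 9.26 in the ileum (8.36) and 6.94 to 12.3 in the colon (10.4). The colon was higher in 12 of 12 mice (log2 0.34, SE 0.07, adjusted p = 0.0017). Pramel25, singled out after its values were seen, rose from medians of 5.13, 5.27 and 5.21 in the small intestine to 6.83 in the colon (log2 0.36, SE 0.07). Zfp534, Zfp982 and Zfp985 had 0.31, 0.28 and 0.28 (SE 0.07 each). With offsets fitted to abundance these 3 values were 0.166, 0.062 and 0.060 (adjusted p = 0.0779, 0.586 and 0.613), and without ConvR mouse 5 their adjusted p was 0.0517, 0.0884 and 0.0999. The Zfp985 call was also lost without ConvR mouse 1 or 4 (adjusted p = 0.053 and 0.0741) and without GermFree mouse 4 (0.0612). The broadest region, at Gm2544, had 0.33 (SE 0.08), which was 0.036 with offsets fitted to abundance (adjusted p = 0.783), and without ConvR mouse 5 the adjusted p was 0.0534. At Sfi1 the log2 difference was 0.31 (SE 0.09, adjusted p = 0.027), with medians of 102, 106, 115 and 135 CPM per kb along the intestine, and it turned to -0.10 with those offsets.

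Immune and transport genes were among the higher regions as well. At Igk, the light chain locus, the region of 10024 bp had medians of 6.33, 6.55, 6.31 and 8.09 CPM per kb from duodenum to colon (log2 0.32, SE 0.07, adjusted p = 0.0036). An Igh region had 0.31 (SE 0.07). Without ConvR mouse 5 the adjusted p was 0.0532 for Igk and 0.108 for Igh. H2-Q1 and H2-T3, nonclassical class I genes of the MHC, had 0.34 and 0.31. The Ugt1a locus, whose enzymes conjugate bilirubin and drugs, had 0.33 (SE 0.07). Abcg2, an efflux transporter gene of the gut lining that was also singled out afterwards, had 0.31 (SE 0.07). With fitted offsets the Ugt1a and Abcg2 regions had adjusted p values of 0.203 and 0.0693.

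The regions lower in the colon differed from the higher ones but lay in genes about as often as members not called. Of the 60, 88.3% overlapped a protein-coding gene and 65.0% lay inside 1, against 39.5% and 20.4% of the higher regions. Among the 4323 members not called these shares were 85.3% and 69.4%. Median capture was 5.08 CPM per kb in the lower regions, 6.86 in the higher and 4.74 in those not called. The 60 were spread over 58 runs. The largest fall was at Klhl3, an adaptor of a ubiquitin ligase (chr13:58028310-58033466), with 4.30 to 8.09 in the duodenum (median 5.49), 4.39 to 6.89 in the jejunum (5.37), 4.61 to 6.69 in the ileum (5.03) and 2.67 to 5.76 in the colon (4.02). In 0 of 12 mice did the colon exceed the small intestine mean (log2 -0.38, SE 0.08, adjusted p = 0.0024). Ube3b, a ubiquitin ligase gene, held medians of 5.79, 5.70, 6.43 and 4.64 (log2 -0.38, SE 0.08), and Eppk1, an epithelial cytoskeletal linker, medians of 5.42, 4.93, 5.66 and 3.98 (log2 -0.37, SE 0.07). The ubiquitin ligase scaffold Cul7 had -0.34, and Kif26a, Wdr6, Cdc42bpb, Gcn1, Bop1 and Kif21b had values from -0.33 to -0.31. These 10 regions kept their sign and their call under each scaling. Without ConvR mouse 5 the calls at Cdc42bpb, Bop1 and Kif21b were lost (adjusted p = 0.0571, 0.0548 and 0.0532), and in GermFree libraries alone Cul7 had an adjusted p of 0.0965.

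**Figure D5:**
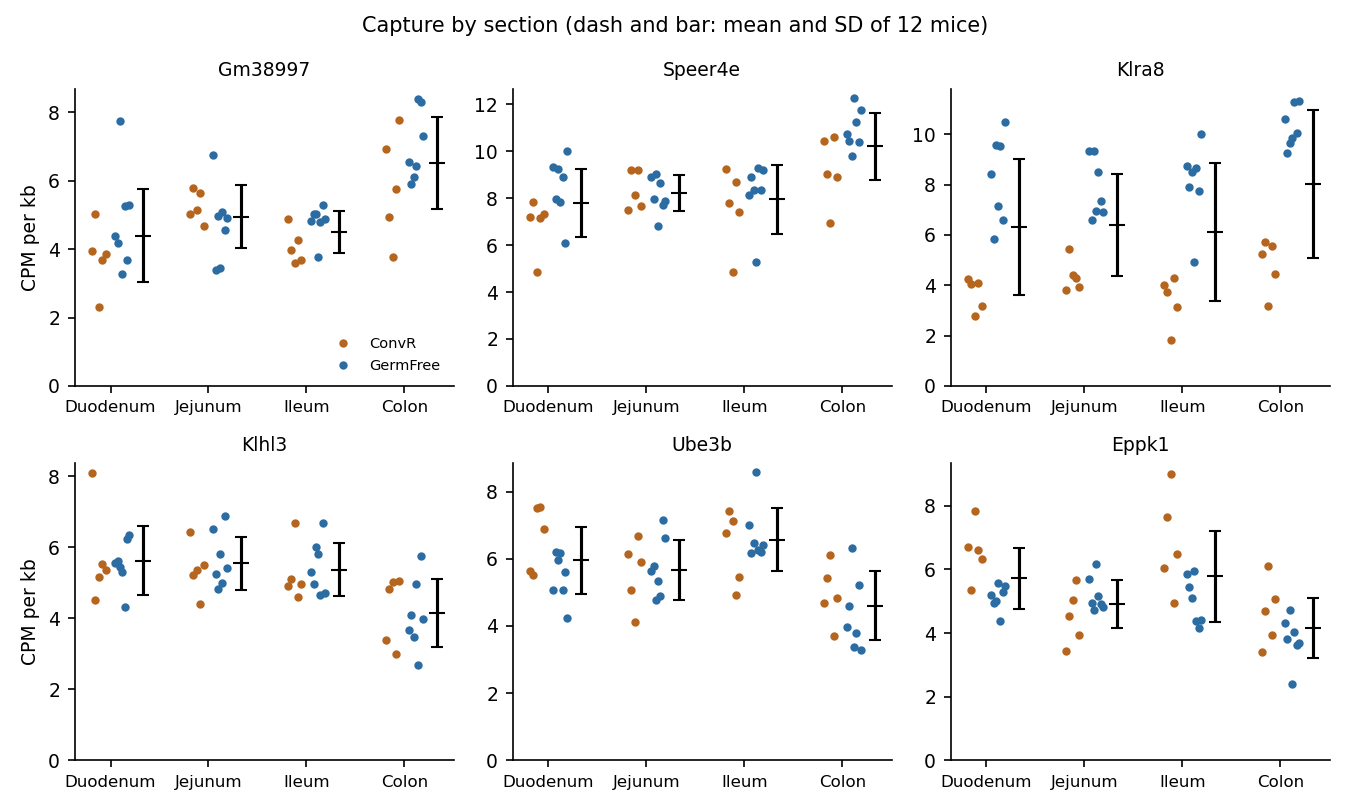
Capture in CPM per kb by section for 6 broad regions, each point 1 library of a ConvR or GermFree mouse, with mean and SD of 12 mice. The colon is highest at Gm38997, Speer4e and Klra8 and lowest at Klhl3, Ube3b and Eppk1, and at Klra8 GermFree mice also lie above ConvR mice in every section.

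Within the small intestine no broad region was called. Ileum against duodenum called 0 members with edgeR and 0 with DESeq2, and 158 (3.27%) had an unadjusted p under 0.05, against 0.00209% called over all regions. Jejunum against duodenum called 0 of all 95876 regions (0%), and 238 members had an unadjusted p under 0.05. The members with the smallest p were at Map3k21, a kinase gene, for the ileum (log2 0.35, adjusted p = 0.578) and at Kif21b, a kinesin gene, for the jejunum (log2 -0.31, adjusted p = 0.871).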

How the data were processed

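The deposited table holds whole-number read counts for each captured region and library, made by the authors with featureCounts on regions called with MACS2, per the submitters' processing notes. Those notes also name Trim Galore 0.3.7, cutadapt 1.4.2 and build mm10. The sources used here do not give the aligner, how duplicate and multiply placed reads were treated, or which libraries were pooled to call regions. The deposited peak list gives each region's position and a score, which was used only as a median by width class.

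Counts were scaled with TMM factors and tested with edgeR 4.0.16 (quasi-likelihood test, regions kept by filterByExpr, Benjamini-Hochberg adjustment over all regions tested, threshold 0.05), in R 4.3.3. The mouse was the replicate in the model comparison, where each section was fitted alone and the 4 sections of a mouse were also summed. For sections all 48 libraries were fitted together as separate units, so the main section results leave out the pairing by mouse. The fits were also run on simulated counts with the same spread parameter at every region. That simulation held no link between the sections of a mouse or between neighbouring regions, so it does not speak to either. Levels are TMM-normalised CPM divided by region width in kb, and a standard error is the log2 difference over the square root of F. Genes and promoter windows came from RefSeq tables of GRCm38.p6. Sections came from the same mice, and the deviations of same-mouse libraries correlated by -0.158 to 0.540 (median 0.0581 over 72 pairs), so the fit with a mouse block is given beside the section results. The log2 counts themselves correlated by up to 0.940 between 2 libraries.

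The members and gene lists were chosen with earlier results of these data known. Named regions were those with the largest called changes, the widest, the highest and lowest in capture and those of the gene lists, with others marked as chosen after their values were seen. Alternatives were other scalings, no count filter, autosomes only, DESeq2 1.42.0, blocks, other width limits and leaving out each mouse. Counting error limits narrow regions most: the median count per library was 9.25 under 1 kb and 128 at 10 kb or more.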

Additional observations from a re-analysis of the deposited data

Results flagged for a closer look

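In 140 groups of libraries or mice checked for a value far from the rest, 4 stood out, where chance gives about 1 in 20. The share of counts in broad regions was 18.8% in the ileum of GermFree mouse 4, while the other GermFree ileum libraries lay between 19.9% and 20.6%. ConvR mouse 3 was low at C1ra, with 3.88 CPM per kb against 4.57 to 4.70 in the other ConvR mice. The same mouse was low at the Ifi203 region, with 4.14 against 5.45 to 5.88. GermFree mouse 3 had 4.86 CPM per kb at Kif21b, where the other GermFree mice lay between 5.54 and 5.99.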

How the results depend on the processing

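For single regions named in the text, other scalings, filters, blocks, tools and subsets of libraries kept the direction and side of the threshold in 569 cases, lost the call in 69 and reversed 1, and leaving out 1 mouse kept it in 746 and lost it in 58. With fitted offsets the colon calls at Klra9 (0.09, adjusted p = 0.381) and Pramel23 (0.10, adjusted p = 0.287) were among those lost. With a width limit of 7500 bp the broad regions called were 60 in the sums over sections, 61 in the duodenum, 36 in the jejunum, 45 in the ileum and 62 in the colon, 181 in the joint test of sections and 294 for colon against small intestine, since fewer regions were counted. The share of counts in broad regions was 27.1% with a limit of 4000 bp and 9.92% with 7500 bp. DESeq2 called 32 in the jejunum. The joint test of sections called 206 with offsets fitted to abundance, 578 with the mouse as a block and 0 in ConvR libraries alone, where colon against small intestine also called 0. The cause was not tested. The median log2 difference between models, near 0, was -0.014 with library totals and -0.012 with fitted offsets. The colon difference at Sfi1 turned to -0.10 with fitted offsets.

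ConvR and GermFree mice can be paired by mouse number or by the letter code of the titles, whose meaning is not stated. Their deviations correlated by -0.355 to 0.210 over 5 pairs with the same number (median -0.121). Over 5 pairs with the same letter code the correlations ran from -0.355 to 0.223 (median -0.114). A block by mouse number left 37 calls in the ileum, and the letter code of the titles as a term left 44.

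Leaving out 1 mouse at a time gave 87 to 106 calls in the sums, 79 to 118 in the duodenum, 47 to 65 in the jejunum, 49 to 97 in the ileum, 88 to 114 in the colon, 25 to 481 in the joint test of sections and 208 to 704 for colon against small intestine. It gave 0 to 0 for ileum against duodenum, jejunum against duodenum and the interaction, and a median log2 difference between models of -0.0021 to 0.0026.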

Other observations

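MicroRNA genes lay in 70 broad regions, and 2 of these regions were lower in the colon. Over all regions 0.607% were called lower, and over the broad regions 60 of 4834. The number of microRNA regions called lower was 7 with library totals, 11 with offsets fitted to abundance and 6 with the mouse as a block. The 2 were singled out after their values were seen. The region over Abcf1, a ribosome-associated ATPase gene, and Mir877 (chr17:35957368-35964079) held medians of 5.15, 5.57, 5.35 and 4.69 CPM per kb in duodenum, jejunum, ileum and colon, and the colon was lower by a log2 value of -0.24 (SE 0.07; adjusted p = 0.0336 with edgeR). The region over Pold1, the catalytic subunit gene of DNA polymerase delta, and Mir7053 (chr7:44534455-44545437) held medians of 5.09, 5.00, 5.08 and 4.29 (log2 -0.25, SE 0.07, edgeR adjusted p = 0.021). No broad region over a microRNA gene was called between the mouse models in the sums over sections, where 0.475% of all regions were called.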
